A study of Mus musculus with 6 samples.

Results

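The genes described here are 8 genes of Schwann cells and their myelin, measured in biopsies of mouse skin and of chemically induced skin tumors. They are the myelin genes Mbp, Pmp22, Mag and Prx, the glial lineage genes S100b, Cdh19 and Gfap, and the transcription factor gene Egr2. The members were all probes of the array, apart from control spots, whose annotated gene name was 1 of these 8. The rule found 13 of 55681 probes and 8 of 36161 gene names, with 1 probe for each of 5 genes, 2 for Pmp22 and 3 each for Mbp and Gfap. The choice of genes used no measured value of these arrays as a threshold, but it was made with earlier results of these data known.

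Schwann cells are the glia of peripheral nerves. In skin they wrap the larger sensory axons in myelin, hold bundles of small axons without myelin, and cover the endings of touch receptors and hair follicle nerves. Myelin is compacted membrane, and its making is driven by the transcription factors SOX10 and EGR2 (also called KROX20), which switch on the genes of the myelin proteins. After a nerve is injured, Schwann cells lower the myelin genes and raise a set of repair genes, and melanocytes, which share their origin in the neural crest, express several of the same lineage genes.

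There were 3 arrays of healthy skin and 3 of skin tumors, each with Cy3-labelled RNA of 1 biopsy of a female mouse of the inbred strain FVB/N. The tumors, labelled as cutaneous squamous cell carcinoma, followed treatment with DMBA, a mutagen, and with the phorbol ester PMA (TPA), a tumor promoter, for 6 weeks, then a second dose of DMBA and 14 more weeks of PMA. The healthy skin had been treated with acetone, the solvent, so that tumor and treatment cannot be told apart. The labels give no genotype beyond the strain, no age and no statement on how many mice were used. The p-values therefore rest on the spread among these 6 biopsies, which may be technical in part. A biopsy is a mix of cells, and fewer cells of a type and less RNA per cell cannot be told apart in it.

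All levels below are log2 signals minus the array's 75th percentile, so that a level of 0 is that percentile itself. They are compared between arrays for the same probe; where 2 probes of a gene are subtracted from each other, only the change of that gap between arrays is read. Between 48.7% and 65.4% of spots were well above background on an array. The dimmest array was healthy skin 3, whose 75th percentile signal was 242 where the others had 525 to 897. Background was highest on tumor 1, at a median of 85 intensity units where the others had 23 to 26. Of 24757 features tested with limma, 39.8% of those called were higher in tumors. That share was 62.9% when arrays were scaled to their median and 70.8% when they were scaled to spike-in RNA, and these scalings moved the median change over all features on the log2 scale from -0.16 to 0.21 and 0.73. The epidermal keratin gene Krt5 was bright on every array, with levels of 8.66 to 9.59 in healthy skin and 8.60 to 8.90 in tumors.

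The 8 genes did not all give the same result. S100b, Cdh19, Pmp22, Egr2 and Prx were lower in the tumors, 5 of the 8 genes, and none was higher. Cdh19 passed the detection filter only through the healthy skin arrays, so its place in this count and in the probe count below is a description. The log2 fold changes, tumor minus healthy skin, were -3.94 for S100b, -2.41 for Pmp22, -2.29 for Egr2 and -2.07 for Prx, and Cdh19 has only a bound, whereas Mag, Gfap and the brightest Mbp probe did not pass the test. Among all features tested, 15.6% were lower and 10.3% were higher at a limma adjusted p under 0.05. The median log2 fold change of the 8 genes was -2.18, against -0.16 for all features. The arrays of the 2 groups did not overlap for 5 of the 8 genes, and they did not overlap for 49.7% of all features. Probe by probe, 7 of the 11 member probes that passed the detection filter were lower and 0 were higher, where 16.0% of all probes were lower and 10.1% were higher. With spike-in scaling 2 of the 8 genes were still called lower, S100b and Cdh19. With both the dim array and the high-background array left out (healthy skin 3 and tumor 1), 3 of the 8 were.

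**Figure D1:**
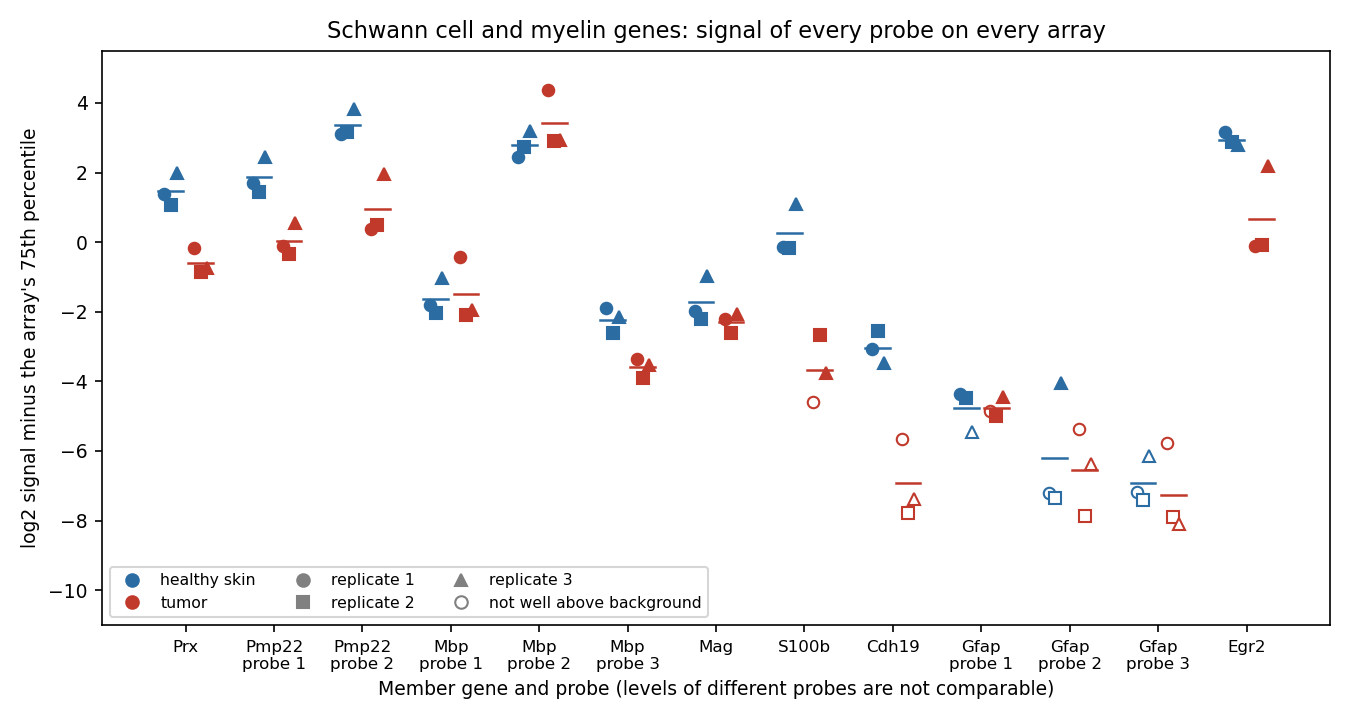
Levels of the 13 member probes on the 6 arrays, as log2 signal minus the array's 75th percentile; symbols stand for replicates, open symbols for spots not well above background, and horizontal lines for group means. The healthy skin and tumor arrays lie apart for Prx, both Pmp22 probes, S100b, Cdh19, Egr2 and 1 of the Mbp probes, and they mix for Mag and Gfap.

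Prx encodes periaxin, a scaffold protein of myelinating Schwann cells that links their outer membrane to the cell skeleton. Its probe (A_55_P2149951, chr7:28304999-28305058 on mm9, plus strand) read 1.38, 1.08 and 1.98 in healthy skin and -0.17, -0.86 and -0.74 in the tumors. Every tumor lay below every healthy skin sample, and the spread within each group was small (SD 0.46 and 0.37, n = 3 each). The difference was -2.07 ± 0.35 (SE), 4.20-fold lower in tumors (limma adjusted p = 0.00659). The call was lost only with spike-in scaling (-1.18, limma adjusted p = 0.235).

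Pmp22 encodes a small membrane protein of compact myelin whose altered gene dosage causes common inherited neuropathies. It is also expressed outside nerves, for example in fibroblasts and epithelia. Its brighter probe (A_55_P2040170, chr11:62972989-62973048, plus strand) read 3.11, 3.16 and 3.81 in healthy skin and 0.39, 0.50 and 1.97 in tumors, a difference of -2.41 ± 0.48 (SE), or 5.31-fold lower (limma adjusted p = 0.0115). The second probe, 1127 bases upstream (A_55_P2040168, chr11:62971862-62971921), read 1.71, 1.45 and 2.45 against -0.12, -0.35 and 0.55, a difference of -1.85 ± 0.39 (SE, limma adjusted p = 0.0139). The probes thus gave the same direction, and tumor 3 was the highest tumor on both. The difference between the probes within an array, dimmer minus brighter, was -1.49 ± 0.19 in healthy skin and -0.93 ± 0.46 in tumors (SD, n = 3 each), with overlapping groups (two-sided exact permutation test, p = 0.3; the smallest p that 3 against 3 allows is 0.1). The call of the brighter probe was lost with spike-in scaling (-1.52, limma adjusted p = 0.175 in the test of 1 probe a gene) and when healthy skin 3 and tumor 1 were both left out (-1.90, limma adjusted p = 0.0745). That of the second probe was also lost without tumor 2 (-1.66, limma adjusted p = 0.0512).

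Mag encodes myelin-associated glycoprotein, which sits on the innermost myelin membrane and binds the axon. Its probe (A_55_P2062757, chr7:31684202-31684261, minus strand) read -1.98, -2.20 and -0.96 in healthy skin and -2.22, -2.60 and -2.06 in tumors. It was well above background on all 6 arrays, and the groups overlapped. The difference was -0.58 ± 0.39 (SE, limma adjusted p = 0.298), and its sign turned with spike-in scaling (0.31). With the slide row as a block, which leaves only healthy skin 3 against the 3 tumors, it was -1.33.

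Mbp encodes myelin basic protein, which glues the inner faces of the myelin membrane together. The same locus also makes longer transcripts, named Golli, from a start site far upstream, and these are expressed outside myelin, for example in immune cells. The array held 3 Mbp probes on chromosome 18 (mm9, plus strand), and they did not show the same change. In order along the gene, the first (A_55_P1992160, 82691469 to 82691528) read -1.82, -2.03 and -1.02 in healthy skin and -0.42, -2.09 and -1.96 in tumors, a difference of 0.14 ± 0.52 (SE, limma adjusted p = 0.859). The second, 36460 bases further on and the brightest (A_52_P604195, 82727929 to 82727988), read 2.44, 2.73 and 3.21 against 4.37, 2.92 and 2.95, a difference of 0.62 ± 0.46 (SE, limma adjusted p = 0.342). On both of these probes tumor 1 was the highest of all 6 arrays and the other tumors lay within or near the range of healthy skin. With the mean of the Mbp probes in place of the brightest, the estimate was -0.20 and did not pass the test either.

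The third Mbp probe was lower in the tumors. It starts 14337 bases beyond the second (A_52_P329451), and its match on mm9 runs from 82742266 to 82744570, a span of 2305 bases for a probe whose neighbours span 60, so that its ends lie in different exons. It read -1.90, -2.62 and -2.16 in healthy skin and -3.35, -3.90 and -3.52 in tumors. All tumors lay below all healthy skin samples, tumor 1 included, with a difference of -1.36 ± 0.32 (SE, limma adjusted p = 0.0198). The call was lost with spike-in scaling (-0.47, limma adjusted p = 0.689), with no detection filter (limma adjusted p = 0.0691), without healthy skin 1 (-1.20, limma adjusted p = 0.0681) and without tumor 2 (-1.21, limma adjusted p = 0.0736). The array annotates this probe and the first to transcript variant 7 of Mbp and the brightest probe to variant 8; which transcripts each of them detects was not tested.

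The gap between Mbp probes within an array is untouched by the constant that scales each array, but not by the background correction. The third probe minus the second was -4.34, -5.35 and -5.36 in healthy skin and -7.72, -6.82 and -6.47 in tumors, so that it was wider in every tumor, by -1.98 on average. The third minus the first was -0.09, -0.59 and -1.13 in healthy skin and -2.94, -1.82 and -1.56 in tumors, a shift of -1.50. The second minus the first moved less, from 4.42 ± 0.30 in healthy skin to 4.90 ± 0.11 in tumors (SD, n = 3 each), a shift of 0.48. Each of these 3 gaps separated the groups, with p = 0.1 in the two-sided exact permutation test, the smallest it can give with 3 against 3, and 0.133 after Benjamini-Hochberg adjustment over the 4 probe pairs compared (the Pmp22 pair included). The 3 gaps are not independent, since any 2 of them fix the third. Among all single features 49.7% separated the groups, and the share among probe pairs of other genes was not computed.

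**Figure D2:**
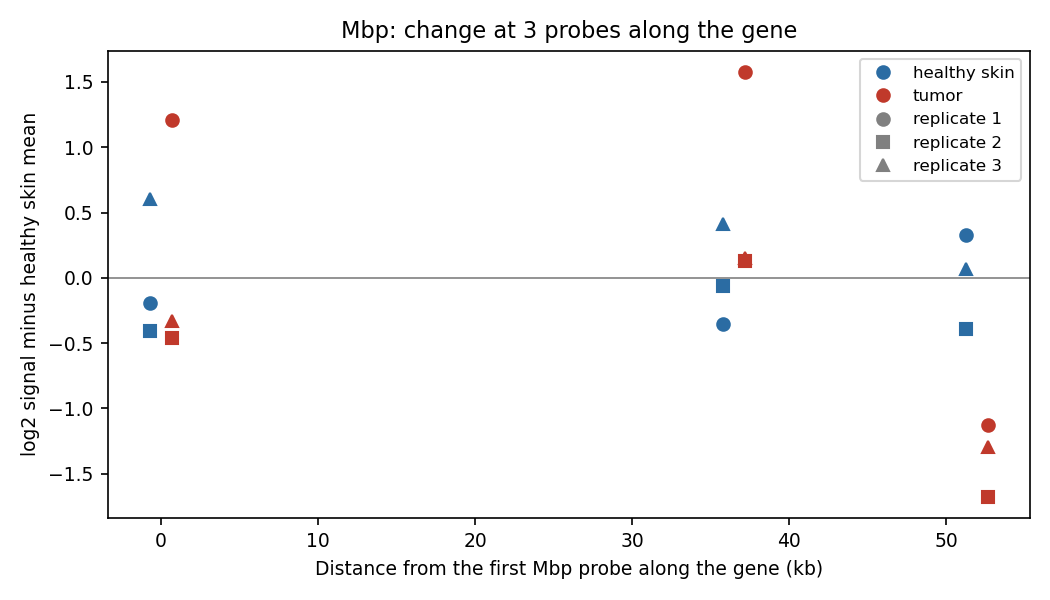
The 3 Mbp probes by distance along the gene in kilobases; the vertical axis is the log2 signal minus the healthy skin mean of the same probe, with points for arrays and a small sideways shift between groups. Tumor 1 lies highest at the first and second probe, and all 3 tumors lie below healthy skin at the third.

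S100b encodes a calcium-binding protein that is the classical marker of Schwann cells in skin and is also made by melanocytes and some dendritic cells. Its probe (A_51_P468260, chr10:75723783-75723842, plus strand) read -0.14, -0.17 and 1.11 in healthy skin and -4.60, -2.67 and -3.76 in tumors. The lowest healthy skin sample stood well above the highest tumor, and the tumor 1 spot was not well above background. The difference was -3.94 ± 0.57 (SE), 15.4-fold lower (limma adjusted p = 0.00368). It was called in all 16 alternative settings that kept the probe, with log2 fold changes of -4.79 to -2.79.

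Cdh19 encodes cadherin-19, an adhesion protein of the Schwann cell lineage. Its probe (A_66_P109397, chr1:112785846-112785905, minus strand) read -3.06, -2.56 and -3.46 in healthy skin, well above background on all 3 arrays, and -5.65, -7.78 and -7.37 in tumors, not well above background on any. Tumor Cdh19 therefore has only an upper bound, and the gene was at least 5.21-fold lower in tumors. This bound replaces each tumor value by the dimmest signal well above background on its array where that is higher than the value itself, and it holds for background-subtracted signals. The limma adjusted p was 0.00388, with a fitted log2 fold change of -3.91 ± 0.57 (SE) that is no measure of size. The probe passed the detection filter only through the healthy skin arrays, and with no filter the limma adjusted p was 0.0112. Values that keep more background gave smaller differences, -1.47 with normexp correction and -1.35 in the authors' deposited values, both still called.

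Gfap encodes an intermediate filament protein of astrocytes that non-myelinating and repair Schwann cells also make. It was near background throughout. The 1 probe that passed the filter (A_55_P2157250, chr11:102748864-102748923, minus strand) read -4.36, -4.47 and -5.46 in healthy skin and -4.85, -4.99 and -4.46 in tumors, and was well above background on 2 arrays of each group. Its estimate was near 0 with an SE of 0.37 (limma adjusted p = 0.998). The other Gfap probes did not pass: A_52_P52303 was well above background on 1 array, healthy skin 3, and A_55_P2157245 on 0 of 6. No difference in Gfap was detectable at this signal.

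Egr2, the transcription factor that starts and maintains myelination, is also an immediate early gene and is expressed in hair follicles and lymphocytes. Its probe (A_55_P2033362, chr10:67004798-67004857, plus strand) read 3.17, 2.89 and 2.78 in healthy skin and -0.12, -0.10 and 2.19 in tumors. Healthy skin was tight (SD 0.20), and the tumors were not (SD 1.32), because tumor 3 lay close to healthy skin while tumors 1 and 2 lay far below. The difference was -2.29 ± 0.62 (SE), 4.89-fold lower (limma adjusted p = 0.033). The call was the least stable among the 5 genes and held in 7 of 17 alternatives. It was lost, among others, without healthy skin 1 (limma adjusted p = 0.08), healthy skin 2 (0.0748), healthy skin 3 (0.0777), tumor 1 (0.0958) or tumor 2 (0.0958), while without tumor 3 it was -3.05 (limma adjusted p = 0.00274).

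Within the groups the member probes did not rank the arrays alike. Healthy skin 3 was the highest healthy skin array for 7 of the 11 member probes that passed the filter, and healthy skin 2 was the lowest for 6. Among tumors, tumor 2 was the lowest for 8 of the 11, and tumor 1 and tumor 3 were each the highest for 5. How often these arrays held such ranks among all features was not computed, and healthy skin 3 was also the dimmest array. The ranks are therefore not shown to be particular to the members.

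Promoter sequences from RefSeq (GRCm38.p6) were read for 6 members, as 1 window of 250 bases before the most upstream start of each gene. Cdh19 and Mbp were not analysed here. Cores of the SOX motif (ACAAAG, or CTTTGT on the other strand) and of the EGR motif (GCGTGGG, or CCCACGC) were searched on both strands, since SOX10 and EGR2 act on myelin genes. The Prx window held 1 EGR core, which begins at position -161 from the start site, and the Mag window held 1 SOX core, at -67. The windows of S100b, Pmp22, Egr2 and Gfap held neither. Of 27025 genes' windows of this length, 16.5% held the SOX core and 4.18% the EGR core, so a match is a description of the letters and not a binding site. The 4 windows below, 5′ to 3′ on the gene's strand, are those of 3 genes that were lower in tumors (Prx, Pmp22 and S100b) and of Mag, which did not pass the test; capitals mark the searched cores.
Prx, chr7:27499074-27499323, plus strand: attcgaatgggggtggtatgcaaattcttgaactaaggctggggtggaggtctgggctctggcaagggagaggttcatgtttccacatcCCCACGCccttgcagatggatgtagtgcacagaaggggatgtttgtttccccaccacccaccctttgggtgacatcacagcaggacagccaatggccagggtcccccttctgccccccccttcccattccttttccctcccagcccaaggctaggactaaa
Mag, chr7:30914923-30915172, minus strand: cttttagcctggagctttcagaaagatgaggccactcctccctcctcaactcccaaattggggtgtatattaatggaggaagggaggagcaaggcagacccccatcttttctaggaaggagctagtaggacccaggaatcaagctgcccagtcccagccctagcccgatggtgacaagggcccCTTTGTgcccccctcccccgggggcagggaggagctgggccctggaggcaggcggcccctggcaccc
Pmp22, chr11:63128732-63128981, plus strand: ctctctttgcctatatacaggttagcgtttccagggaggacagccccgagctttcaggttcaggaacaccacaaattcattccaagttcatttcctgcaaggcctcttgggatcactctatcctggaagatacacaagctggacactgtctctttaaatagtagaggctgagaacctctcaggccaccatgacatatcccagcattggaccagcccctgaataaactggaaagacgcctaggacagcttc
S100b, chr10:76253586-76253835, plus strand: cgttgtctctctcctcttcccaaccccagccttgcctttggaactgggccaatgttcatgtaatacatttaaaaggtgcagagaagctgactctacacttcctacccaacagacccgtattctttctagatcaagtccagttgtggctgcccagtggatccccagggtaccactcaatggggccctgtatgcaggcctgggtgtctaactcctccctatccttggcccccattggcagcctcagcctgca

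Around the members, 5 further lists of nerve genes held 70 genes, of which 57 passed the detection filter. Of these, 16 (28.1%) were lower and 9 (15.8%) were higher, and the median change was -0.63 on the log2 scale. Among all features 15.6% were lower and 10.3% were higher, with a median of -0.16. These shares also stand beside the counts of each list below. The lists were written with earlier results of these data known, and their counts are descriptions.

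Of 15 other myelin genes, 13 were measured, 5 fell and 2 rose. Fa2h, which makes the hydroxylated fatty acids of myelin lipids and also of skin and sebum lipids, fell by 4.54 on the log2 scale. The Fa2h call was lost when healthy skin 3 and tumor 1 were both left out (-4.33, limma adjusted p = 0.0605). Cldn19, a claudin of Schwann cells, fell by 2.17, with 2 of 3 tumor arrays well above background. Its call was lost with quantile scaling (limma adjusted p = 0.0549), with spike-in scaling (-1.28, limma adjusted p = 0.217), with normexp correction (-0.98, limma adjusted p = 0.0625) and in the authors' deposited values (-0.95, limma adjusted p = 0.0588). Ncmap, a protein of non-compact myelin, fell by 2.26 with a call that held in 5 of 17 alternatives. The Ncmap call was lost when healthy skin 1, 2 or 3, or tumor 1 or 2, was left out (limma adjusted p = 0.0698, 0.0879, 0.137, 0.0992 and 0.106). Cldn19 and Ncmap were named after their values were seen.

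The 2 myelin-list genes that rose were Mal and Cadm4. Mal, a membrane protein of myelin and of the apical membrane of epithelia, read 0.56, 0.61 and 1.76 in healthy skin and 7.18, 6.82 and 5.52 in tumors, a log2 fold change of 5.53 ± 0.53 (SE, limma adjusted p = 0.000908). Cadm4, an adhesion molecule that Schwann cells use to bind axons and that epithelia also express, rose by 2.78 ± 0.61 (SE, limma adjusted p = 0.016). Its call held in 16 of 17 alternatives. With the slide row as a block its estimate was 2.10, from 1 healthy skin array. Cnp and Gjb1, a myelin enzyme and the gap junction protein of Schwann cells, did not pass the test (0.27 and -0.65).

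Among 10 genes of periaxin's partners and of the contact between axon and myelin, 5 fell and 0 rose, with a median of -1.60. Drp2, the dystrophin-related protein that binds periaxin, read -1.33, -1.76 and -0.96 in healthy skin and -3.73, -3.21 and -2.93 in tumors (-1.94 ± 0.34, SE, limma adjusted p = 0.00788), with 2 of 3 tumor arrays well above background. The Drp2 call was lost with spike-in scaling (-1.05, limma adjusted p = 0.321). The setting that keeps only probes well above background on all 6 arrays drops this probe and reads another Drp2 probe in its place. That other probe was at -0.83 and was not called (limma adjusted p = 0.127). Gldn (gliomedin) and Nrcam, which cluster sodium channels at nodes of Ranvier, were both lower. Gldn was well above background on 1 of 3 tumor arrays, and its estimate of -4.89 became -2.76 with normexp correction. Nrcam was well above background on 2 of 3 tumor arrays, and its estimate of -4.47 became -3.35; both genes were still called. Utrn (utrophin) fell by 1.82, a call lost with spike-in scaling (-0.93, limma adjusted p = 0.36). Nfasc (neurofascin), named after its values were seen, fell by 1.76, with a call that held in 7 of 17 alternatives. The Nfasc call was lost without healthy skin 2, tumor 1, tumor 2 or tumor 3 (limma adjusted p = 0.0674, 0.0653, 0.0961 and 0.0578). Dag1, the dystroglycan that anchors periaxin and Drp2 at the membrane, was at -0.84 (limma adjusted p = 0.064).

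Of 15 regulators of the Schwann cell lineage, 14 were measured, 4 fell and 1 rose. Sox10, the lineage factor, read -0.50, -0.65 and 0.69 in healthy skin and -2.85, -3.17 and -2.88 in tumors (-2.81 ± 0.40, SE, limma adjusted p = 0.00359). It was named after its values were seen, and its call was lost with spike-in scaling (-1.92, limma adjusted p = 0.0601). Pou3f1 (OCT6), a transient driver of myelination that keratinocytes also express, fell by 3.78, and Adgrg6 (GPR126), a receptor needed for Schwann cells to myelinate, fell by 3.26. The Pou3f1 call was lost when healthy skin 3 and tumor 1 were both left out (-3.47, limma adjusted p = 0.0768). Foxd3, a neural crest factor, was not well above background on any tumor array and was at least 4.96-fold lower in tumors (limma adjusted p = 0.00434). As for Cdh19, this bound holds for background-subtracted signals, and the authors' deposited values gave a log2 fold change of -1.31, still called. Like Cdh19, Foxd3 passed the detection filter only through the healthy skin arrays. Nrg1, the growth factor by which axons direct myelination and which other tissues also make, read -1.06, -1.33 and -2.29 in healthy skin and 3.34, 4.73 and 3.02 in tumors. Its log2 fold change was 5.26 ± 0.53 (SE, limma adjusted p = 0.00107). The neuregulin receptor genes Erbb2 and Erbb3 were measured and did not pass the test (-0.10 and -0.61; both named after their values were seen).

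**Figure D3:**
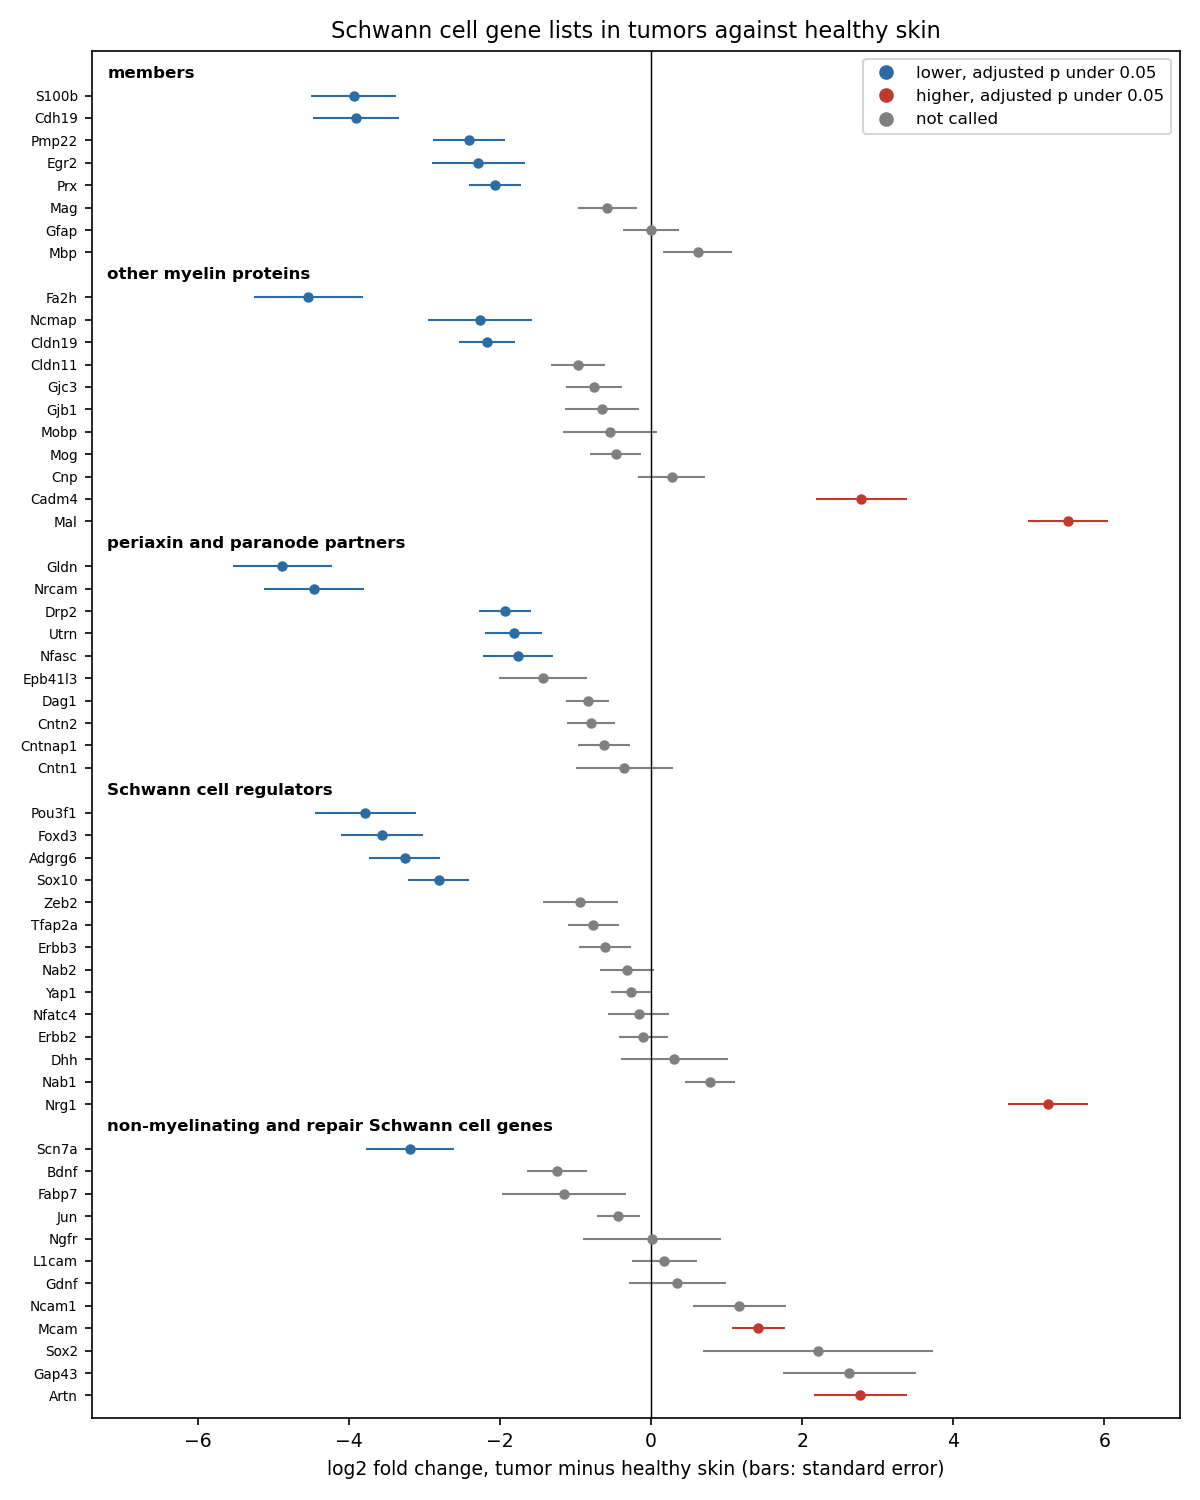
Log2 fold changes, tumor minus healthy skin, of the 8 members and of measured genes from 4 related lists; points are limma estimates and bars their standard errors, and colours mark the call at an adjusted p under 0.05. Members and lineage genes lie mostly left of 0, while Mal, Cadm4, Nrg1, Artn and Mcam lie to the right. Estimates for genes not well above background in tumors, Cdh19 and Foxd3, are no measure of size.

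Genes of non-myelinating and repair Schwann cells had a median log2 fold change of 0.35. Of 15, 13 were measured, 1 fell and 3 rose. Scn7a, a sodium channel of non-myelinating Schwann cells, was the gene that fell. It was well above background on 1 of 3 tumor arrays, and its estimate of -3.19 became -1.47 with normexp correction, still called. Artn (artemin), a growth factor for sensory neurons, rose by 2.77, and Mcam, an adhesion molecule also found on vessels, rose by 1.42. The Artn call was lost without healthy skin 2 (limma adjusted p = 0.0536). The Mcam call held in 9 of 17 alternatives and was lost without healthy skin 2, tumor 1, tumor 2 or tumor 3 (limma adjusted p = 0.0703, 0.0705, 0.053 and 0.0502). Jun, the master factor of the repair state, read 4.39, 4.56 and 4.75 against 4.46, 4.07 and 3.88 (-0.43 ± 0.29, SE, limma adjusted p = 0.287). Ngfr, the low-affinity neurotrophin receptor, scattered from -0.36 to 3.16 over the tumors (limma adjusted p = 0.994).

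Few genes of axons were detected on these arrays. Of 15 genes of axons and sensory neurons, 8 did not pass the detection filter, the neurofilament genes Nefl and Nefm, Prph, Uchl1, Scn9a, Scn10a and Calca among them. Of the 7 measured, Snap25, a synaptic membrane fusion protein, fell by 2.72, and Tubb3, a tubulin of neurons and of dividing cells, rose by 4.04. The Snap25 call was lost with spike-in scaling (-1.82, limma adjusted p = 0.0853). That of Tubb3 was lost when healthy skin 3 and tumor 1 were both left out (4.37, limma adjusted p = 0.0547). On the healthy skin arrays neither Tac1, the precursor of substance P, nor Dbh, the enzyme that makes noradrenaline, was well above background. Tumor Tac1 was at least 3.70-fold higher and tumor Dbh at least 5.83-fold higher (limma adjusted p = 0.000739 and 0.00829). With normexp correction neither was called (log2 fold changes of 0.74 and 0.97). Both genes passed the detection filter only through the tumor arrays.

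Relatives of Egr2 and Pmp22 were also measured. Of 8 genes of the Egr family and other immediate early genes, 6 were measured, 0 fell and 3 rose: Arc by 4.60, Junb by 3.37 and Fos by 2.47. Egr1 read 2.43, 2.47 and 1.77 in healthy skin and 2.65, 3.26 and 3.57 in tumors (0.94 ± 0.36, SE, limma adjusted p = 0.092), higher in each tumor where Egr2 was lower. The Junb call was lost without tumor 1 (limma adjusted p = 0.0503) and the Fos call without tumor 2 (limma adjusted p = 0.0553). Of 4 genes of the PMP22 family, Emp1 rose by 1.91 and Lim2 by 1.33, while Emp2 and Emp3 did not pass the test (-1.01 and 0.67). The Emp1 call was lost without tumor 2 (limma adjusted p = 0.0504), and the Lim2 call held in 8 of 17 alternatives and was lost without healthy skin 1, healthy skin 2, tumor 1 or tumor 2 (limma adjusted p = 0.0862, 0.0837, 0.0796 and 0.0969).

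Markers of other cell types moved between the same arrays. All 9 skeletal muscle markers fell, and their summed signal was 905 to 1357 times the array's 75th percentile signal in healthy skin and 25.6 to 55.8 times in tumors. Mouse skin has a thin muscle sheet beneath it. Of 7 fat cell markers, 6 were measured and 4 fell, although the summed signal overlapped (50.5 to 172.8 against 64.9 to 192.9) because Fabp4, also made by other cells, dominated it. Of 6 melanocyte markers, 1 was called lower, Mitf by 2.77, a call lost with spike-in scaling (-1.88, limma adjusted p = 0.107). All 6 estimates were below 0, with a median of -2.37. Those of Dct (-3.69) and Tyrp1 (-3.45) were larger than that of Mitf but did not pass the test. The summed signal was 3.59 to 24.6 in healthy skin and 0.713 to 3.24 in tumors, and none was at 0. The part of these cell types in the lower S100b, Sox10 and Cdh19 signals was not tested. Of 7 markers of central glia, 4 were measured: Aqp4, which skeletal muscle also expresses, fell by 3.94 with 2 of 3 tumor arrays well above background, Aldh1l1 rose by 1.45, and Mobp and Mog did not pass. The Aldh1l1 call held in 8 of 17 alternatives and was lost without healthy skin 1, healthy skin 2, tumor 1 or tumor 2 (limma adjusted p = 0.133, 0.123, 0.109 and 0.146).

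**Figure D4:**
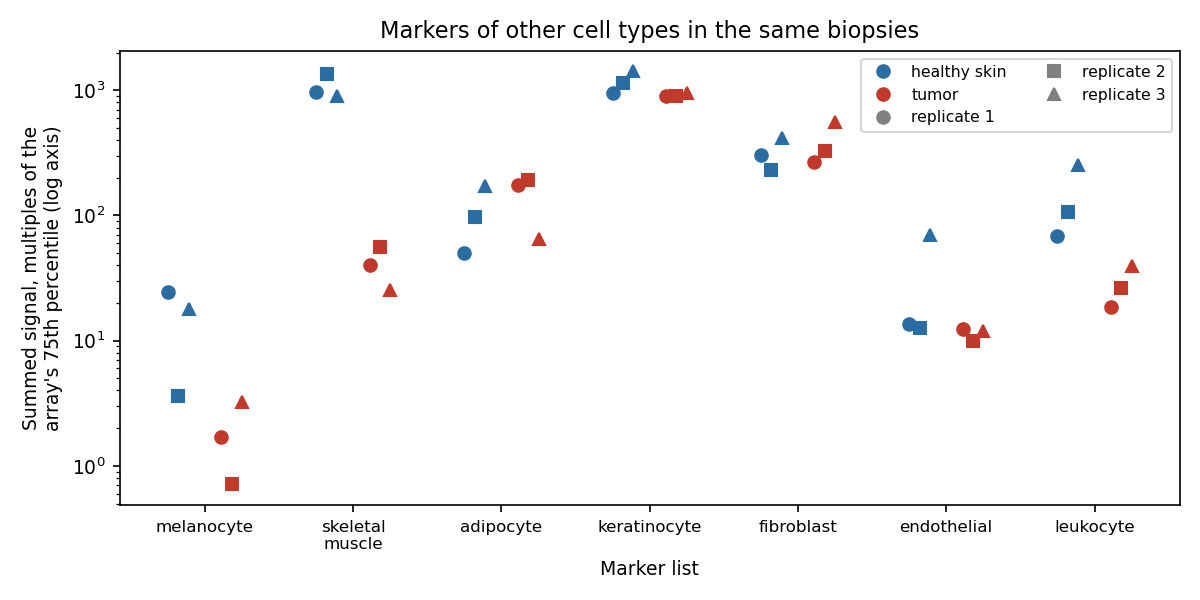
Summed signal of each marker list in multiples of the array's 75th percentile signal, on a log axis; points are arrays. The skeletal muscle markers of all tumors lie below those of all healthy skin samples (25.6 to 55.8 against 905 to 1357), and keratinocyte sums lie between 905 and 1413 on all arrays.

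The remaining marker lists are those of cells common in skin. The summed signal of 7 keratinocyte markers was 953 to 1413 in healthy skin and 905 to 952 in tumors, with 2 genes lower and 0 higher. That of 7 fibroblast markers was 229 to 418 and 268 to 561, with 2 lower and 1 higher. Of 5 endothelial markers 0 fell and 1 rose, and of 5 leukocyte markers 2 fell and 1 rose. Several calls of these 4 lists were not stable. The lower calls of Krt1, Krt10, Dcn and Dpt held in 5, 12, 15 and 9 of 17 alternatives. The higher calls of Col1a1 and Emcn held in 8 and 14 of 17. Cd3e was lower in 11 of 17 and Cd68 higher in 8 of 16. Itgam fell by 2.60, but only by 0.35 with the mean of its probes (limma adjusted p = 0.405).

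The features whose pattern over the 6 arrays came closest to a member were found by the Euclidean distance between log2 levels centred on their mean, a description over 6 arrays of 1 slide, which differ in brightness and background as given above. For S100b they included Fgf1 (distance 0.45) and Zfp536 (0.75). For Prx they were Tnrc6c (0.28), Fgf22 (0.33) and Grb10 (0.40), and for Pmp22 Camkk1 (0.31), Mturn (0.36) and Mfsd13b (0.38). For Cdh19 they were Dpf3 (0.44), Col22a1 (0.60) and Adad2 (0.71), and for Egr2 Tnfsf15 (0.68), Adgre4 (0.70) and Slc40a1 (0.74). The tumor values of Cdh19 were not well above background, so its distances do not measure a shared pattern. Slc40a1, like Egr2, stood near its healthy skin level in tumor 3 (1.08 against 1.32 to 1.75 in healthy skin) and far below it in tumors 1 and 2 (-0.90 and -1.80). For Mag they were Sprn (0.22), Depdc5 (0.24) and Zfp592 (0.25), for the brightest Mbp probe Map3k9 (0.21), Crb3 (0.29) and Plcd1 (0.30), and for Gfap Cbl (0.31), Ets2 (0.32) and Mettl17 (0.33).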

How the data were processed

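Cy3-labelled total RNA was hybridised to 1-colour Agilent arrays of 62976 spots, 3 per group, all on 1 slide. Healthy skin 1 and 2 lay in slide row 1, and healthy skin 3 and all tumors in slide row 2. Group and slide row are therefore largely confounded. The deposited scanner intensity values are, per the file headers, processed spot signals with the background subtracted by Agilent Feature Extraction 10.7.3.1. The authors' deposited series table holds log2 values. On every array they rank spots as the median signal before background subtraction does (Spearman correlation 1), and their column medians are 6.33 to 6.35; how they were centred is not stated in these sources. The submitters' processing notes name limma. The members, gene lists, alternatives and naming rule were chosen with earlier results of these data known.

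Each array's 75th percentile over 59305 non-control spots was subtracted from its log2 signals, and spots of a probe were averaged after outlier spots were dropped (180 probes lost, 0 of them members; 0 spots saturated). A probe had to be well above background on at least 3 of 6 arrays (34284 probes), and the brightest probe represented its gene (24757 features). Names came from RefSeq GRCm38.p6 (15272 by accession, 1018 by symbol, 178 by synonym; 8289 kept the array's name), probe positions from the array's annotation (mm9). The test was limma 3.58.1 under R 4.3.3 with moderated statistics, two-sided and without a block, with Benjamini-Hochberg adjustment over all features and a threshold of 0.05. Beside the members, the text names up to 4 called genes per list with the largest change, up to 2 bright uncalled genes, and the 3 features nearest to each member; others were chosen after their values were seen. Not every gene counted in a list is reported here by name. Precision is limited by the number of arrays. The fit was tested on simulated data with known changes. Alternative settings changed the scaling (quantile, median, spike-in), the background correction (normexp with an offset of 50), the values (the deposited table), the detection filter, the merging of probes, a block for replicate number or slide row, and the arrays included.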

Additional observations from a re-analysis of the deposited data

How the results depend on the processing

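The 6420 features called became 2678 with spike-in scaling and 3920 with no detection filter, and ranged from 3840 to 5458 when 1 array was left out, with 4056 without healthy skin 2 and 3840 without tumor 2. The 5 members called lower became 2 with spike-in scaling, 3 with probes well above background on all 6 arrays (S100b and Cdh19 are then left out by construction), 3 with healthy skin 3 and tumor 1 both left out, and 4 to 5 without 1 array. The 7 member probes called lower became 2 with spike-in scaling, 4 with that pair left out, and 4 to 7 without 1 array (4 without tumor 2). The 16 genes of the other nerve lists called lower became 8 with spike-in scaling and 10 with all 6 arrays well above background, and 14 to 17 without 1 array; the 9 called higher became 7 to 9. No member was called higher under any of these settings, and S100b was called lower in all 16 alternatives that kept it. So was Cdh19, but it passed the detection filter only through the healthy skin arrays, so that its calls are a description. Krt5, not called, turned from -0.25 to 1.13 and was called with the mean of its probes. The replicate block gave 5470 features and left 5 members lower. Deviations from the group means correlated at 0.10, 0.13 and -0.08 between same-numbered arrays of the 2 groups. Between different-numbered arrays the correlations ran from -0.27 to 0.17. With 3 arrays per group these values cannot decide whether the numbers pair the samples. The cause of these shifts was not tested, apart from the filter's. Cdh19, Gfap and 1 S100b spot are limited by signal near background.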
